A study of Mus musculus with 16 samples.

Results

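Solute carrier genes were followed in mouse CD4 T cells with and without the corepressor scaffold Sin3A, in IL-7 culture and after Th17 polarization. The members are the genes of the deposited table whose symbol begins with Slc and a digit, without the glucose transporter Slc2a1. They number 88 of the 8552 named genes and come from 31 families, and 85 of them are carriers by name. The other 3 only share the prefix: Slc2a4rg-ps is a pseudogene, Slc36a3os a transcript opposite a carrier gene and Slc4a1ap an adaptor protein. The table names only genes that the authors list as lower in Sin3A deficient Th17 cells, so these 88 are not all solute carriers of the mouse, and they were chosen by the authors' log2 fold change between Th17 libraries.

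The cells were purified CD4 T cells of C57BL/6 J mice aged 2 months, with the genotype Rosa26-CreERT2 +/- Sin3AF/F. Rosa26-CreERT2 is a Cre recombinase made in most cells and switched on by tamoxifen, and Sin3AF/F denotes 2 floxed copies of the target gene. All 4 groups carry these alleles and all spent 6 days in IL-7, a cytokine that keeps T cells alive without activating them. The IL-7 sufficient group (libraries BASAL955, BASAL957, BASAL959 and BASAL960) had no tamoxifen, and the IL-7 deficient group (BASALTAM955 to BASALTAM960) had it. The Th17 sufficient group (D3955 to D3960) and the Th17 deficient group (D3TAM955 to D3TAM960) went through the same steps and then 3 days under Th17 polarizing conditions. Each group has 4 libraries, whose names end in the same 4 numbers in every group. Of these numbers 1 is labelled female and 3 male. Whether a number is a mouse is not in the labels, so the p-values describe only how far these libraries scatter, and some of that scatter may be technical. A library's values are always given in the order of its number, from BASAL955 to BASAL960 and likewise in the other groups. With 0 tamoxifen-treated libraries that lack the floxed alleles among them, deletion and tamoxifen cannot be told apart.

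Solute carriers are membrane proteins that move sugars, amino acids, lactate, ions, metals, vitamins and nucleotide sugars across the plasma membrane and across the membranes of mitochondria, lysosomes and the Golgi. A resting T cell takes up little. Once activated it imports glucose and amino acids and exports lactate, and the carriers at its surface are known to limit how far growth and cytokine production can go. Many carriers need a partner chain, such as the glycoprotein basigin for the lactate carriers or the CD98 heavy chain, itself a member (Slc3a2), for several amino acid carriers.

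The deposited values are normalized counts, meaning reads divided by a size factor the authors estimated per library. They had lost their decimal points, which were restored as described under the processing. A name could be tied to a row for 86 members, not for Slc6a13 and Slc6a19. For 18 of the 86 the power of 10 of an IL-7 value stayed uncertain, and 2 others (Slc13a3 and Slc17a6) averaged under 5 normalized counts, which left 66 members for tests. Changes are differences of log2(normalized count + 1), tested with limma in 1 fit of all 16 libraries, and adjusted p-values are corrected over all 13524 rows tested. Normalized counts are not scaled by transcript length, so levels are compared within a gene only.

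Each library held between 19621341 and 28287071 restored reads. Sin3a itself averaged 2524 ± 249 normalized counts in IL-7 sufficient and 2211 ± 98.2 in IL-7 deficient cells (mean ± SD, n = 4 each), a log2 change of -0.19 that did not pass (limma adjusted p = 0.187). In Th17 cells it averaged 2106 ± 181 and 1774 ± 49.8 (n = 4 each), a log2 difference of -0.24 whose direction the naming rule fixes, and the floxed exons are not named in the labels. The T cell markers (6 of 8 on the list) Cd3d, Cd3e, Cd4, Thy1, Cd2 and Lck summed to 66400 to 75940 in IL-7 sufficient, 62200 to 67660 in IL-7 deficient, 55610 to 59780 in Th17 sufficient and 34210 to 37870 in Th17 deficient libraries. Il17a stood at 1072 to 3929 in Th17 sufficient and at 4.304 or less in IL-7 sufficient libraries. Summed B cell markers (Cd79a, Cd79b, Ms4a1 and Blk, 4 of 5 on the list) were 318.5 to 1083 in IL-7 sufficient and 132 to 240.2 in IL-7 deficient libraries. The myeloid list had 1 of 6 genes with a name tied to a row, Cd68, at 52.54 to 174.9, and the NK list had none.

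BASAL960 stood apart among the IL-7 sufficient libraries. It was the library lying outside the other 3 in 4 of 21 sets of values flagged by Dixon's test among the members, each time on the high side, and D3955 and D3TAM955 were low in 5 and 3 such sets.

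Promoter sequence of the RefSeq table (build GRCm38.p6, 300 bases from 250 before to 50 after each start) was found for 68 of the 88 members. The hypoxia response core ACGTG, on either strand, stood in 24 of the 68 (35.3%) against 21.8% of all genes of the table. The E-box CACGTG, which Myc and Max bind and which always holds an ACGTG, stood in 9 (13.2%) against 8.09%. The composite element TGATGNAAN bound by Atf4 was found in 4 (5.88%) against 4.5%. Among the members that rose on polarization of sufficient cells, 5 of 21 with a promoter held ACGTG (23.8%), and among those that fell 4 of 19 did (21.1%). These are matches of letters, not measured binding sites. The stretches below show the motif in capitals (for Slc41a2 and for the later match in Slc7a11 as its reverse complement) for 4 carriers whose values are described further on, 5′ to 3′ on the gene's strand.
Slc16a1 (E-box, chr3:104638444-104638489, plus strand): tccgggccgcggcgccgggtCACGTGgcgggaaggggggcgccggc
Slc16a3 (2 hypoxia cores, chr11:120949020-120949066, plus strand): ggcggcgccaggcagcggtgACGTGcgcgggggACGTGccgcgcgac
Slc41a2 (2 hypoxia cores, chr10:83337818-83337905, minus strand): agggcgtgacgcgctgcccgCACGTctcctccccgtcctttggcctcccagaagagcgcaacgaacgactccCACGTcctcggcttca
Slc7a11 (2 Atf4 elements, chr3:50443633-50443699, minus strand): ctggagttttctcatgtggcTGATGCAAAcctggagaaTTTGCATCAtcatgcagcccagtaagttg
All 4 stretches lie within 250 bases before the start site, and the last motif begins 200, 14, 16 and 48 bases before it in Slc16a1, Slc16a3, Slc41a2 and Slc7a11.

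Loss of Sin3A in IL-7 cells, before any polarization, is the comparison whose libraries played no role in naming the members. These libraries did help decide which members were tested, as 18 were left out for uncertain decimal points in IL-7 values. Those points were placed by how well the libraries of a group matched, which favours members with close IL-7 values. The shares and p-values below hold for that selected set, and the named genes and rows tested were selected likewise. Of the 66 tested members 4 fell and 0 rose in deficient cells: the riboflavin transporter Slc52a3, the sodium-proton exchanger Slc9a5 and 2 members of the nucleotide sugar transporter family, Slc35g1 and Slc35f2. These 4 are 6.06% of the members tested, against 3.17% lower (and 0.676% higher) among all named genes tested and 2.09% lower (and 2.06% higher) among all rows. The other 62 did not pass. Without adjustment 13 had p under 0.05, of which 11 were lower and 2 higher, and voom, a weighted form of limma, called 0 higher and 3 lower. A fit with the number in the library name as a block called 1 higher and 4 lower. The median change of the 66 members was -0.0933, against -0.0473 over named genes and 0.0015 over all rows.

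Slc52a3 brings riboflavin, the precursor of the flavin cofactors, into the cell. Its normalized counts were 77.47, 98.91, 98.61 and 132.7 in IL-7 sufficient libraries and 33.27, 51.05, 42.17 and 45.45 in IL-7 deficient ones. Every deficient library lay below every sufficient one. Its log2 change was -1.22 (SE 0.22, limma adjusted p = 0.00451), and over 30 alternative settings it ran from -1.34 to -1.08.

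Slc35g1, a member of the nucleotide sugar transporter family whose substrate is not well defined, was at 1686, 1853, 1887 and 1431 in IL-7 sufficient cells. In IL-7 deficient cells it was at 1119, 985, 1114 and 1019, again without overlap. The change was -0.69 on the log2 scale (SE 0.11, limma adjusted p = 0.00212). Slc35f2, of the same family, stood at 269, 300.6, 295.8 and 378.7 and then at 183.5, 184.9, 192.5 and 251, and BASAL960 and BASALTAM960 were the highest of their groups. Slc35f2 changed by -0.61 on the log2 scale (SE 0.13, limma adjusted p = 0.0111).

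Slc9a5 exchanges sodium for protons at the membrane. It was at 136.6, 157.3, 137.4 and 316.2 in IL-7 sufficient and at 70.35, 98.59, 92.59 and 120.6 in IL-7 deficient libraries, and BASAL960 was far above the other sufficient libraries. Its log2 change was -0.89 (SE 0.22, limma adjusted p = 0.0259). This call was lost without BASALTAM955 (-0.75, limma adjusted p = 0.0959), without BASALTAM957 (-0.91, limma adjusted p = 0.0663), without BASALTAM959 (-0.88, limma adjusted p = 0.0635), with voom (-0.91, limma adjusted p = 0.0697), in a fit of the 2 groups alone (limma adjusted p = 0.0909) and without the libraries numbered as BASAL955 in all groups (-0.87, limma adjusted p = 0.07). Without the libraries numbered as BASAL960 in all groups it was kept (-0.73, limma adjusted p = 0.0134).

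The 4 calls depend on which libraries enter. Without the libraries numbered as BASAL957 in all 4 groups, 0 of the 66 members passed (adjusted p = 0.0677 for Slc35g1, 0.0765 for Slc52a3, 0.173 for Slc35f2 and 0.188 for Slc9a5, all by limma), while the log2 changes stayed between -1.31 and -0.59. That fit called 36 rows of the whole table against 560 with all libraries. Without those numbered as BASAL959, Slc52a3 and Slc35g1 passed (limma adjusted p = 0.0482 and 0.0434) and Slc35f2 and Slc9a5 did not (0.0969 and 0.0955). Summed B cell markers were lower in IL-7 deficient cells, as given above. Among them Blk fell (414.3 to 68.56 on average, limma adjusted p = 0.00754). Cd79a (105.2 to 70.25) and Cd79b (59.68 to 32.18) did not pass (limma adjusted p = 0.228 and 0.347), and Ms4a1 was not tested. The part of the B cell markers in the 4 changes was not tested. In such bulk samples fewer cells of a type and less RNA per cell cannot be told apart.

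**Figure D1:**
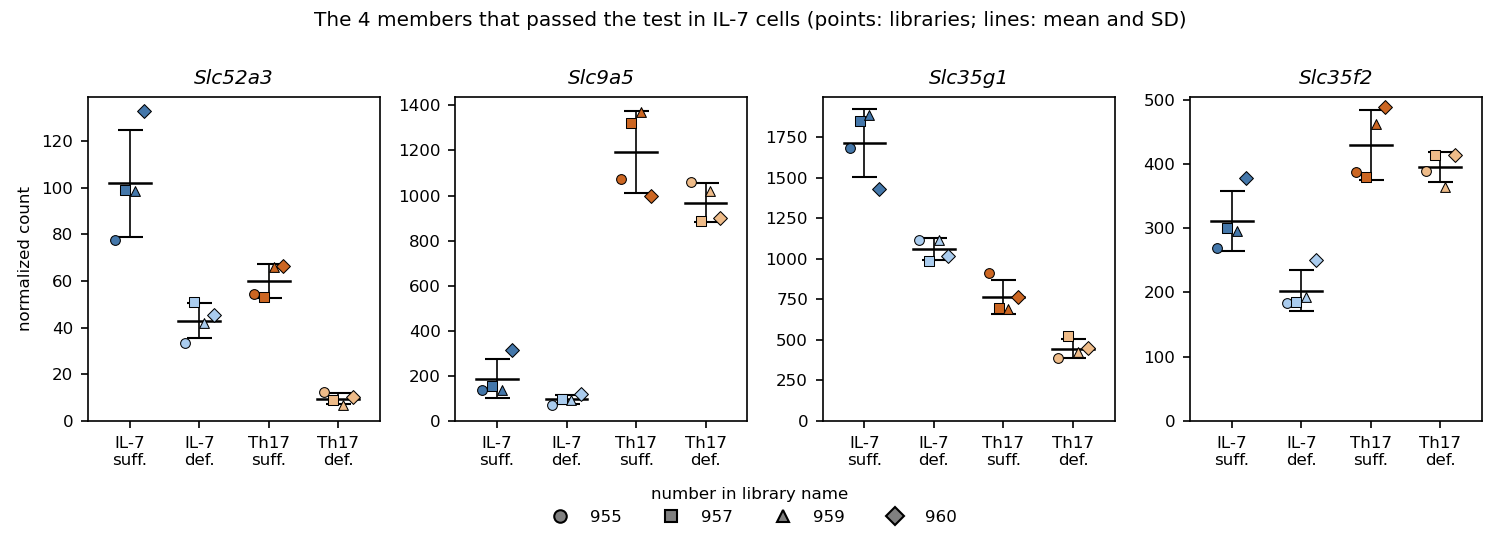
Normalized counts (y axis, linear, from 0) of the 4 members that passed the test in IL-7 cells, in the 4 groups (x axis). Points are libraries with the number in their name as symbol, and lines give the mean and SD of 4 libraries; in each panel all IL-7 deficient points lie below all IL-7 sufficient ones, and BASAL960 is the high Slc9a5 point at 316.2.

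Several carriers shifted without passing. Slc22a15, an organic ion carrier, was at 141, 137.1, 142.4 and 233.3 in IL-7 sufficient and at 84.61, 118, 113.7 and 129.4 in IL-7 deficient cells, with no overlap and a log2 change of -0.53 (SE 0.17, limma adjusted p = 0.0912). Slc14a1, the urea transporter UT-B, was at 1750, 1844, 1752 and 1899 against 1359, 1195, 1421 and 1330. Its groups lay clearly apart, with a log2 change of -0.45, but the shared fit gave an SE of 0.36 for this gene (limma adjusted p = 0.57), and its Th17 libraries range from 23.72 to 100.4. Slc2a8, an intracellular glucose transporter, and the inositol carrier Slc5a3 were the 2 on the higher side with an unadjusted p under 0.05. Slc2a8 had a log2 change of 0.40 (SE 0.13, limma adjusted p = 0.0885), with 182.9, 220.4, 171.9 and 159.8 against 242.4, 273.8, 248.4 and 202.6. In a fit with the number in the library name as a block, Slc2a8 passed (limma adjusted p = 0.049). Slc41a2, a magnesium transporter, was at 4.584 to 10.87 in IL-7 deficient cells. In IL-7 sufficient cells 3 of its values were 45.95, 35.4 and 30.43, and the value of BASAL955 could be 64.56 or 6.456, so it was not tested.

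Polarization of sufficient cells, from IL-7 culture to 3 days of Th17 conditions, changed most carriers. Of the 66 tested, 27 rose (40.9%, against 40.4% of named genes and 36.5% of all rows) and 27 fell (40.9%, against 35.7% and 40.6%), and 12 did not pass. In deficient cells 18 rose (27.3%, against 27.7% of named genes and 37.6% of all rows) and 33 fell (50%, against 50.4% and 40.9%). The members' shares are thus near those of all named genes in both comparisons. The Th17 libraries of these comparisons are also those that chose the names, which favours a higher level in Th17 sufficient and a lower one in Th17 deficient cells, and the difference between both polarization changes was therefore not tested on the members. Summed B cell markers were 137 to 327.2 in Th17 sufficient and 63.34 to 186 in Th17 deficient libraries, with Ms4a1 at 0 in at least 1 library of each, and CD8 markers (Cd8a and Cd8b1) went from 430.3 to 638 in IL-7 sufficient to 231.1 to 519.1 in Th17 sufficient libraries. Of the 6 T cell markers 4 fell on polarization of sufficient and 5 of deficient cells, and 1 rose in each, with the sums given above. The part of these markers in the polarization changes was not tested. All 27 members that fell in sufficient cells fell in deficient cells too, as did 98.4% of the named genes that fell in sufficient cells. Of the 27 that rose in sufficient cells, 18 also rose in deficient cells, where 66.8% of such named genes did, and 9 did not pass there. The shares of all named genes, 40.4% higher and 35.7% lower in sufficient and 27.7% higher and 50.4% lower in deficient cells, are also the background of the class counts given next.

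**Figure D2:**
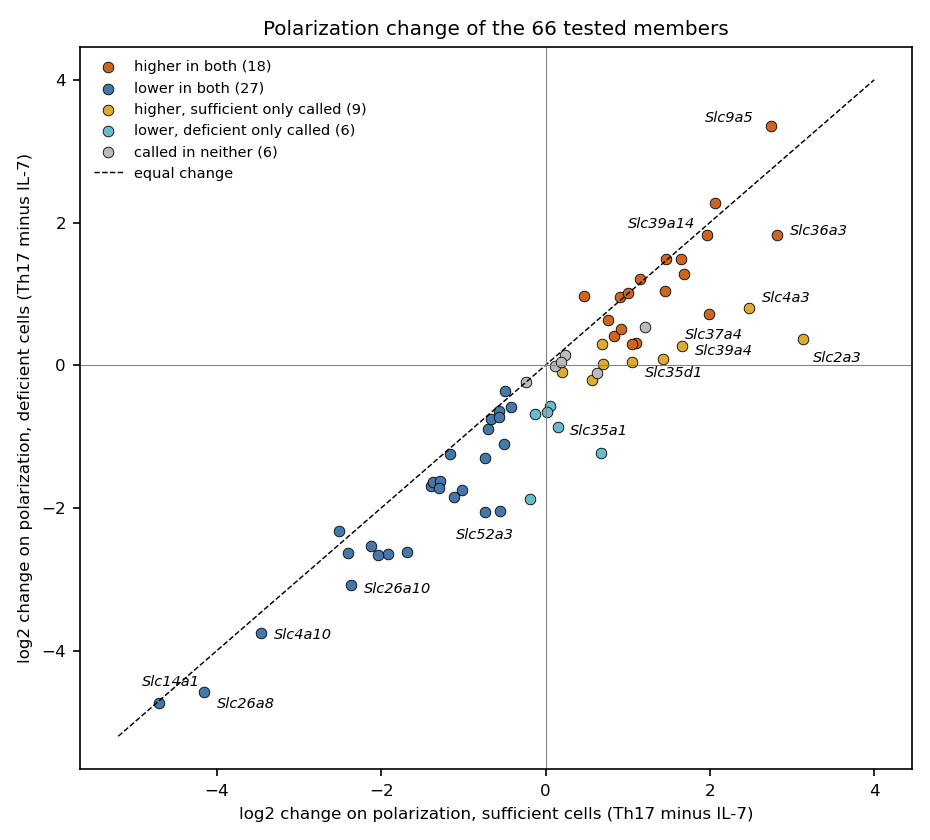
Log2 change on polarization in Sin3A sufficient (x axis) against Sin3A deficient cells (y axis) for the 66 tested members, coloured by which change passed the test. Points below the dashed line of equal change have a lower change in deficient cells, which the naming rule favours; 18 members rose and 27 fell in both, and Slc2a3 has the highest change in sufficient cells (3.13) beside 0.37 in deficient cells.

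For the 18 members with an uncertain power of 10, only the likelier powers of the IL-7 values were compared, and unlikely ones were left out. On all of those likelier powers, 12 were higher in every Th17 sufficient than in every IL-7 sufficient library, and the other 6 could overlap. Among named genes tested, 35.8% showed such a separation upwards. No gene with an uncertain power is among those tested, so these shares are not a like-for-like background. In deficient cells 9 of the 18 were higher and 2 lower on all likelier powers, where the shares of the same named genes were 25.1% and 47.8%.

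Sugar carriers moved in both directions on polarization of sufficient cells: 5 of 9 tested rose and 4 fell. Slc2a3, the high-affinity glucose transporter GLUT3, was at 973.8, 848.2, 1077 and 816.6 in IL-7 sufficient and at 7213, 7484, 8344 and 9459 in Th17 sufficient libraries. This was the highest rise of a tested member (log2 change 3.13, SE 0.45, limma adjusted p = 4.83e-06). In IL-7 deficient cells it stood at 888.9, 779.9, 934.2 and 848.8, and after polarization at 235.4, 2340, 1717 and 1626. Of these, 3 Th17 deficient libraries lay above all IL-7 deficient ones, and D3TAM955 lay below them all. The change in deficient cells was 0.37 with an SE of 0.45 (limma adjusted p = 0.456). Without D3TAM955 it was 1.12 and passed (limma adjusted p = 4.24e-07). Without the libraries numbered as D3TAM957 in all groups it was -0.03 (limma adjusted p = 0.958).

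Slc37a4, the glucose-6-phosphate carrier of the endoplasmic reticulum, rose from 564.9, 520.3, 542.8 and 464.1 to 1908, 2139, 2263 and 2032 in sufficient cells (log2 change 1.99, SE 0.14, limma adjusted p = 4.77e-10). In deficient cells it went from 490.6, 533.4, 579.4 and 483.2 to 572.7, 962.7, 1051 and 910.4, and its lowest Th17 library, again D3TAM955, lay within the IL-7 range. The change there was 0.71 (SE 0.14, limma adjusted p = 0.000147). Slc5a3, which imports myo-inositol with sodium, rose in sufficient (log2 change 1.69) and deficient cells (1.28). Slc2a8 rose by 1.10 and 0.31. Slc37a2, of the sugar phosphate family, rose by 0.57 in sufficient cells and was at -0.21 in deficient cells, which did not pass.

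The falling sugar carriers were Slc50a1 (SWEET1, a low-affinity glucose carrier), Slc2a12 (GLUT12), Slc37a3 and Slc5a2 (SGLT2), in sufficient and deficient cells alike. Slc50a1 went from 2893 ± 257 to 1444 ± 246 in sufficient cells and from 2858 ± 195 to 850.8 ± 75.8 in deficient cells (mean ± SD, n = 4 each). Its log2 changes were -1.01 and -1.75, both with an SE of 0.10. Slc2a6 (GLUT6) was not tested because the powers of 10 of its IL-7 sufficient values are uncertain, and its Th17 sufficient libraries were at 690.4 to 1450.

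The monocarboxylate carriers move lactate, pyruvate and related acids, and 3 of 4 tested rose in sufficient cells. Slc16a1 (MCT1) rose from 734.9, 861.4, 859.7 and 1112 to 2166, 2480, 2843 and 2308, and in deficient cells from 812.9, 847.7, 870 and 906.1 to 2054, 2853, 2258 and 2537. The Th17 values of both genotypes overlapped, and the log2 changes of 1.47 and 1.49 (SE 0.12 each) were close to each other. Slc16a6 rose in both (0.76 and 0.63). Slc16a4 rose in sufficient cells (1.43, SE 0.25, limma adjusted p = 5e-05) and had a change of 0.08 in deficient cells (limma adjusted p = 0.771). Slc16a13 passed in neither (-0.23 and -0.24).

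Slc16a3 (MCT4), the main exporter of lactate in glycolytic cells, stood far higher after polarization. Its Th17 sufficient libraries were at 5797, 4979, 5610 and 5410, and the highest value possible in IL-7 sufficient cells was 245.1. The Th17 deficient libraries were at 929.3, 3658, 3762 and 3364, all above the 62.75 to 113.6 of IL-7 deficient cells and all below the sufficient ones. D3TAM955 was the low library, as for Slc2a3. Because 1 IL-7 value (BASAL960, 24.52 or 245.1) is uncertain, Slc16a3 has no test.

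**Figure D3:**
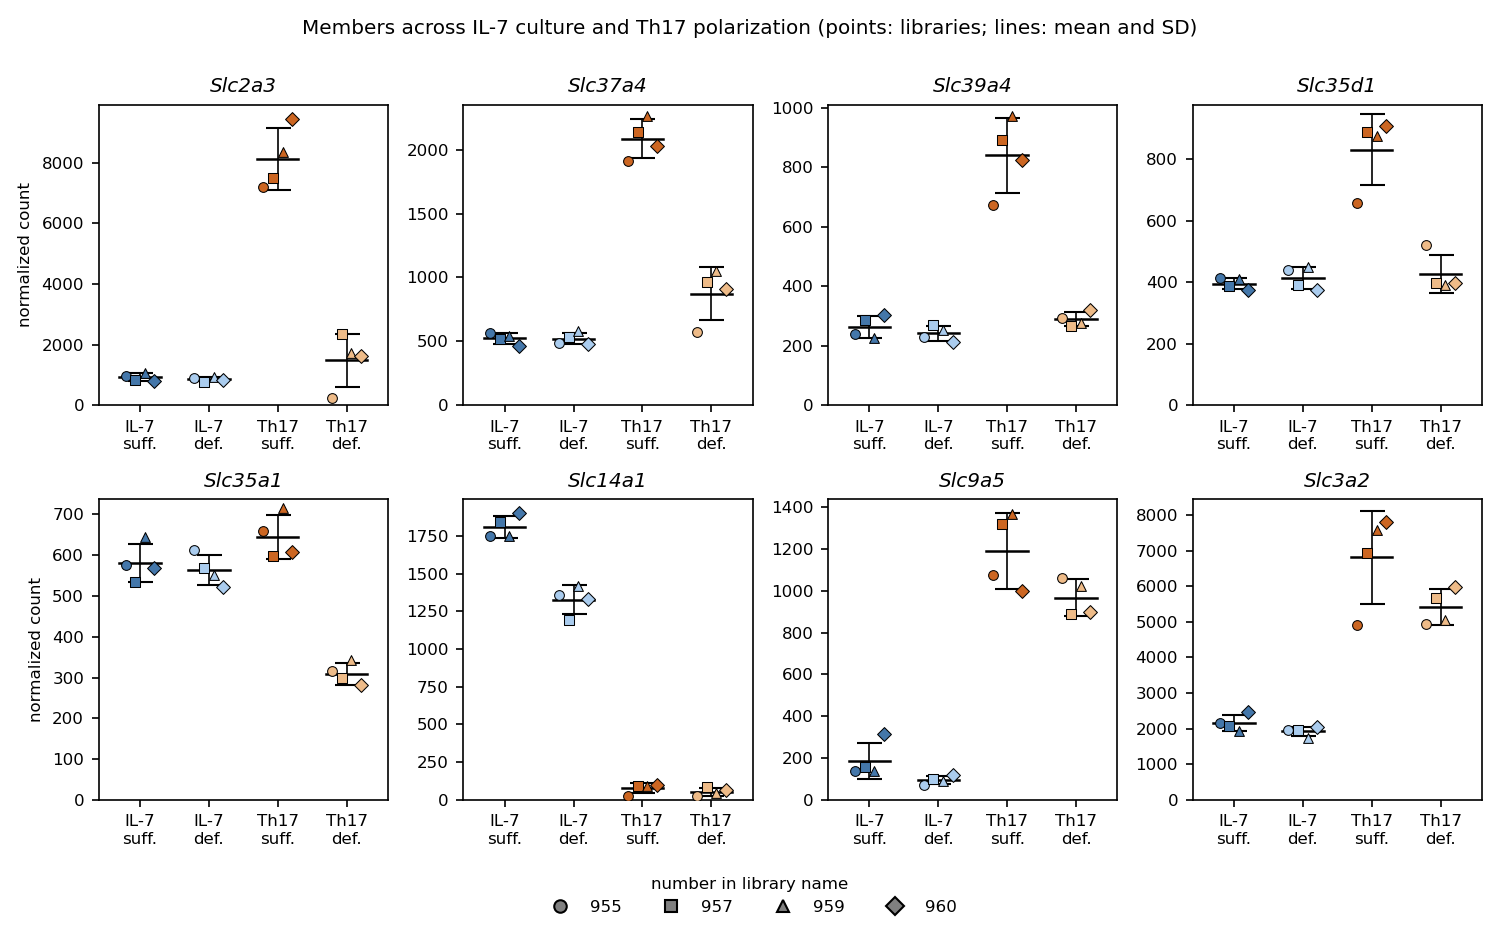
Normalized counts (y axis, linear, from 0) of 8 members in the 4 groups (x axis); points are libraries with the number in their name as symbol, and lines give the mean and SD of 4 libraries. Slc2a3 was at 7213 to 9459 in Th17 sufficient and at 235.4 to 2340 in Th17 deficient libraries, while Slc9a5 and Slc3a2 rose in both genotypes and Slc14a1 fell in both.

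Among the amino acid carriers, 2 of 6 tested rose and 2 fell in sufficient cells. Slc3a2, the CD98 heavy chain, which carries several amino acid transporters to the surface, rose from 2149, 2063, 1938 and 2457 to 4916, 6917, 7576 and 7812. In deficient cells it rose from 1970, 1952, 1747 and 2043 to 4939, 5663, 5047 and 5985. The log2 changes were 1.64 and 1.49 (SE 0.12 each, limma adjusted p = 7.11e-10 and 2.03e-09), and D3955 and D3TAM955 were the lowest Th17 libraries of their groups. Slc36a3, a proton-coupled amino acid carrier of low level, rose as well (2.82 and 1.83). Slc7a7 and Slc7a8, both light chains that pair with the CD98 heavy chain, fell in sufficient cells (-0.73 and -2.51) and in deficient cells (-1.30 and -2.33).

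Slc43a1 (LAT3), a carrier of leucine and related amino acids, was at 22.6, 20.25, 16.01 and 30.43 in IL-7 sufficient and at 48.39, 38.86, 36.52 and 22.57 in Th17 sufficient cells. It did not pass there (log2 change 0.67, limma adjusted p = 0.104), but did without D3960 (0.88, limma adjusted p = 0.0475). In deficient cells it fell by 1.23 on the log2 scale (SE 0.37, limma adjusted p = 0.00561), to 3.514, 5.834, 14.37 and 11.2. Slc7a11, the cystine-glutamate exchanger, stood at 66.17, 77.71, 53.91 and 54.16 in Th17 sufficient and at 58.85, 50.01, 40.25 and 56.85 in Th17 deficient cells, which overlap. All of these lay above the highest value possible in IL-7 cells (25.29).

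Of 6 metal ion carriers tested, 5 rose and 1 fell in sufficient cells, and 3 rose, 1 fell and 2 did not pass in deficient cells. Slc39a14 (ZIP14), an importer of zinc and iron, rose from 685.4, 700.2, 633 and 741.4 to 2076, 2768, 3290 and 2795, a log2 change of 1.97 (SE 0.11, limma adjusted p = 2.03e-11). In deficient cells it rose by 1.83. Slc39a1 (ZIP1) rose by 1.01 in both, and Slc11a2 (DMT1), an importer of iron and manganese, by 0.91 and 0.96. The zinc carrier Slc30a7, which loads the Golgi, fell in both (-0.67 and -0.76).

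Slc39a4 (ZIP4), a zinc importer, rose from 239.9, 287.4, 225 and 303.5 to 673.6, 890.7, 972.1 and 822.6 in sufficient cells (log2 change 1.66, SE 0.13, limma adjusted p = 1.46e-09). In deficient cells it was at 231, 268.5, 253 and 212.4 before and at 292.5, 265.9, 277.9 and 321.3 after polarization, so the groups touched. That change of 0.26 did not pass (limma adjusted p = 0.0658), but it did after median-ratio scaling (0.33, limma adjusted p = 0.0251), after scaling to total reads (0.29, limma adjusted p = 0.0401) and without BASALTAM957 (0.32, limma adjusted p = 0.0459) or D3955 (0.26, limma adjusted p = 0.0418). Slc30a9 likewise rose in sufficient cells (0.69) and was at 0.02 in deficient cells. Both other scalings raise the number of metal ion carriers called higher in deficient cells from 3 to 4.

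Of 10 mitochondrial carriers tested, 6 fell in sufficient cells (35.7% of named genes did) and 7 in deficient cells (50.4%), with 2 rises in each. Slc25a5 (ANT2), which exchanges ADP and ATP across the inner membrane, rose from 5020, 5500, 5005 and 7528 to 12370, 13040, 13820 and 11320. Its log2 changes were 1.15 and 1.21 (SE 0.11 each), and BASAL960 was the high IL-7 library. It has close relatives, and how reads shared with near-identical copies were counted is not given in the sources used here. Slc25a24, an ATP-magnesium and phosphate carrier, rose by 0.83 and 0.41.

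Slc25a45, an orphan mitochondrial carrier, fell from 2016, 1706, 1781 and 1428 to 456.3, 398.8, 393.9 and 427.7 in sufficient cells and from 1484, 1410, 1368 and 1283 to 284.6, 185, 208.9 and 203.3 in deficient cells. The log2 changes were -2.04 and -2.66 (SE 0.12 each). Slc25a23, the paralogue of the rising Slc25a24, fell as well (log2 changes -1.92 and -2.65). Slc25a53, Slc25a51 (the importer of NAD into mitochondria), Slc25a46 and Slc25a37 (mitoferrin, an iron importer) fell in both genotypes with changes between -1.63 and -0.36. Slc25a36, a nucleotide carrier, fell in deficient cells (-0.69) and did not pass in sufficient cells (-0.12).

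The urea transporter Slc14a1 had the steepest fall of a tested member in both genotypes. IL-7 sufficient libraries held between 1750 and 1899 normalized counts, and Th17 sufficient ones 25.68, 92.03, 90.43 and 100.4. IL-7 deficient libraries held between 1195 and 1421, and Th17 deficient ones 23.72, 85.01, 43.12 and 65.46. The log2 changes were -4.71 and -4.73 with an SE of 0.36 (limma adjusted p = 1.58e-09 and 1.15e-09), and D3955 and D3TAM955 were the lowest of their groups.

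Of the anion exchangers and bicarbonate carriers, 4 of 6 fell in each genotype (3 in sufficient cells after median-ratio scaling). Slc26a10, listed among the sulphate and anion exchangers, fell from 5229, 4946, 5317 and 3986 to 1177, 892.7, 849.5 and 874.5, a log2 change of -2.36, and had one of -3.08 in deficient cells (SE 0.10 each).

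Slc26a8 and Slc4a10, at means of 46.04 and 40.9 in IL-7 sufficient cells, fell to 2.421 and 3.303. The bicarbonate importer Slc4a7 rose in sufficient cells (0.69, SE 0.17, limma adjusted p = 0.00122), with D3955 at 1805 and the other 3 at 3092 to 3200, and did not pass in deficient cells (0.30, limma adjusted p = 0.115). Slc9a5, which fell with Sin3A loss in IL-7 cells, rose to 1074, 1321, 1370 and 999.8 in Th17 sufficient and to 1061, 889.3, 1022 and 898.4 in Th17 deficient cells. These groups overlap, and its changes of 2.75 and 3.35 (SE 0.22 each) include the highest of a tested member in deficient cells. Its relative Slc9a8, a Golgi and endosome exchanger, fell in both (-1.12 and -1.84).

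Nucleotide sugar carriers feed the glycosylation of proteins in the Golgi. The class was set by the family name Slc35 alone. It also holds members with another substrate, such as Slc35b3, or with none well defined, such as Slc35g1. Of this class 4 of 10 tested rose (5 after median-ratio scaling) and 3 fell in sufficient cells. In deficient cells 2 rose and 5 fell. Slc35d1, a carrier of UDP-sugars, rose from 413.2, 387.1, 409.6 and 374.5 to 657.8, 888.6, 874.8 and 907.2 in sufficient cells (log2 change 1.06, SE 0.12, limma adjusted p = 1.58e-07). It was at 0.04 in deficient cells, where 440.2, 390.8, 449.2 and 375.5 became 521.8, 397.6, 392.9 and 397.9. Slc35a1, the CMP-sialic acid carrier, did not pass in sufficient cells (0.15) and fell in deficient cells from 612.3, 569.5, 551.9 and 521.7 to 316.2, 298.4, 343.1 and 280.8 (-0.86, SE 0.09, limma adjusted p = 9.58e-08). Slc35a2, the UDP-galactose carrier, rose in both (0.92 and 0.51), and Slc35b3, a carrier of the sulphate donor PAPS, fell in both (-1.30 and -1.72). Slc35g2 fell as well (-1.68 and -2.62).

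Slc35f2 and Slc35g1, which both fell with Sin3A loss in IL-7 cells, parted on polarization. Slc35f2 rose (0.47 and 0.97), and its Th17 sufficient (388.1, 379.4, 462.6 and 488.6) and Th17 deficient values (388.3, 413.4, 364.2 and 413.4) overlapped. Slc35g1 fell (-1.16 and -1.25), with 913.6, 699.4, 688.7 and 763.9 in Th17 sufficient against 387.4, 525.9, 426.4 and 448.8 in Th17 deficient cells.

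Of the vitamin and haem carriers, Slc48a1 (HRG1), which releases haem from lysosomes, rose from 1230, 1273, 1200 and 1281 to 2035, 2618, 2891 and 2932 in sufficient cells (1.06) and by 0.29 in deficient cells. Slc52a3 fell in both (-0.74 and -2.06), and so did the lysosomal Slc46a3 (-2.12 and -2.53). Slc27a1, a fatty acid carrier, rose in both (1.46 and 1.04), and so did Slc22a15 (2.06 and 2.27). The pseudogene Slc2a4rg-ps fell in both (-2.41 and -2.63).

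**Figure D4:**
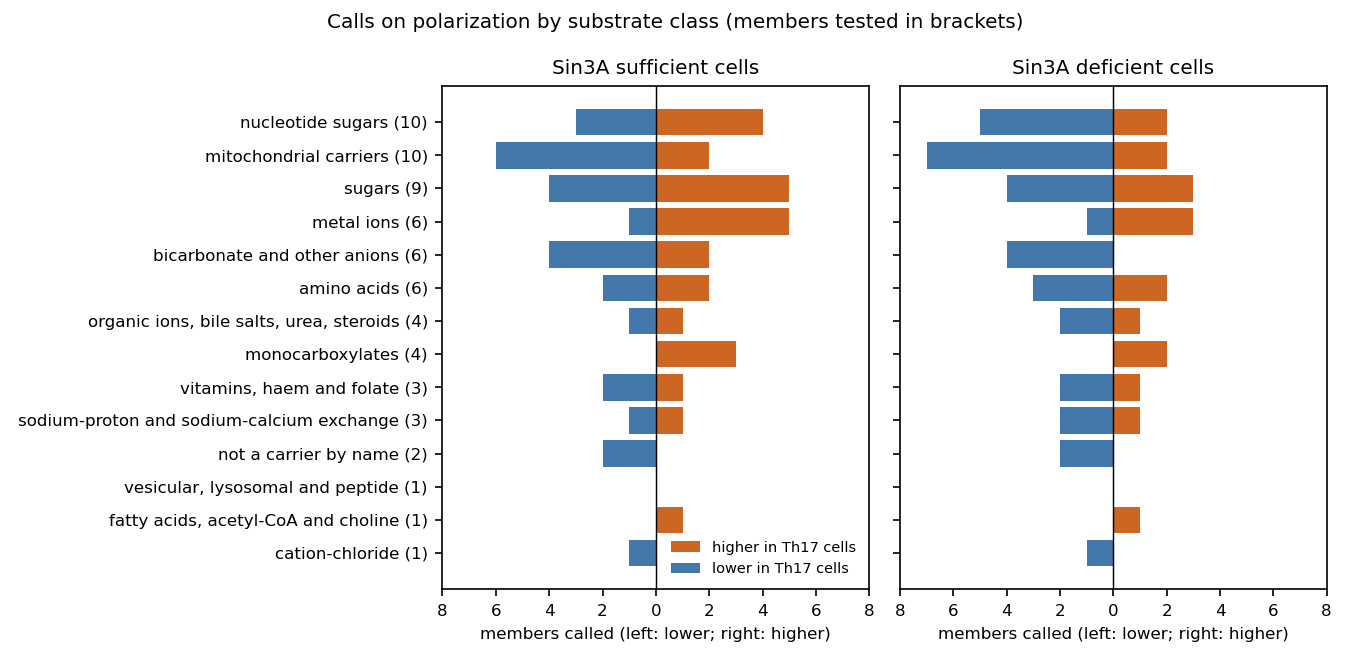
Number of members called lower (left of 0) and higher (right of 0) on polarization in each substrate class, for Sin3A sufficient (left panel) and deficient cells (right panel), with the number tested in brackets. Metal ion carriers had 5 rises and 1 fall in sufficient cells and mitochondrial carriers 2 rises and 6 falls.

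Loss of Sin3A in Th17 cells chose the members, so its values are a description without a test. All 86 members with values were lower in deficient cells, from -3.73 to -0.01 with a median of -0.58, against -0.46 over all names tied to rows. In 39 of the 86 (45.3%) every deficient library lay below every sufficient one, where 43.3% of all such names did, and 24 (27.9%, against 23.2%) had a log2 difference of -1 or lower. An adjusted p under 0.05 stands beside 45 of the 88 in the authors' deposited table, where 51.1% of all 8552 named genes have one. Nearest to the edge of the rule were Slc36a4, Slc25a37 and Slc16a1, with log2 fold changes of -0.0072, -0.0117 and -0.0143 in the authors' deposited table, and genes above 0 carry no name there.

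The widest gaps were in carriers of different classes. Slc35d3, a Golgi member of the nucleotide sugar family, was at 134.3, 235.2, 370.4 and 308.1 in Th17 sufficient and at 8.784, 33.34, 13.42 and 23.26 in Th17 deficient cells (log2 difference -3.73). The deficient values lay in the range possible for IL-7 cells, 1.686 to 28.66, but for 33.34. Slc41a2 was at 163, 127.8, 129.6 and 213.3 against 7.906, 17.5, 23.96 and 17.23 (-3.24), and its deficient Th17 values overlapped those of deficient IL-7 cells.

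Slc2a3 followed with -2.86, from values already given, and Slc52a3 with -2.54. Slc52a3 was at 54.32, 53.17, 66.08 and 66.58 in Th17 sufficient and at 12.3, 9.168, 6.708 and 10.34 in Th17 deficient cells. The peptide carrier Slc15a1 was at 33.58, 65.44, 65.22 and 109.5 against 7.906, 10.84, 18.21 and 20.67, and the lysosomal Slc15a3 at 556, 975.5, 1190 and 1099 against 488.4, 220, 371.8 and 466. The cationic amino acid carrier Slc7a3 was at 176.8, 143.2, 176.5 and 362.2 against 77.3, 69.18, 57.5 and 69.77, with D3960 high. Slc16a4, Slc39a4 and Slc37a4 completed the 10 lowest among members averaging at least 50 normalized counts in Th17 sufficient cells (-1.61, -1.52 and -1.29).

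Slc2a3, Slc15a2, Slc35d3 and Slc6a8 were tied to their rows only on less likely powers of 10, which makes these 4 less secure than the others. For Slc2a3 the authors' deposited table gives a log2 fold change of -2.46 with an SE of 0.494, and for Slc35d3 it gives -3.73 with an SE of 0.409.

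Partners and regulators of carriers were read from a list of 50 genes, of which 18 carry a name and 17 were tested. In IL-7 cells 2 of the 17 fell with Sin3A loss (3.17% of named genes did), 1 of them also after scaling to total reads. They were Tfrc, the transferrin receptor that feeds iron to Slc11a2 (2190 to 1329 on average, log2 change -0.71, limma adjusted p = 0.00611), and Mlst8, a subunit of the mTOR complexes (-0.36, limma adjusted p = 0.0328). On polarization of sufficient cells 8 rose and 6 fell, near the shares of named genes (40.4% and 35.7%). Basigin (Bsg), the chaperone of Slc16a1 and Slc16a3, rose by 2.67 in sufficient and 1.78 in deficient cells, and embigin (Emb), its relative, by 0.60 and 0.46. Tfrc rose by 2.32 and 2.78, Hif1a, the oxygen-sensing factor, by 2.27 and 0.76, and Atf4, the amino acid stress factor, by 0.88 in sufficient cells with 0.26 in deficient cells, which did not pass (limma adjusted p = 0.0685).

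In deficient cells 5 of the 17 rose and 8 fell (27.7% and 50.4% of named genes), and 8 rose and 7 fell after median-ratio scaling. Nprl3, Mlst8, Fnip1, Lamtor4, Srebf2 and Txnip fell in both genotypes, the last of them a protein that restrains glucose uptake (-0.79 and -0.78).

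Other transporter families were counted in IL-7 cells too, where 3.17% of all named genes fell. Among them 0 of 13 ABC transporters and 0 of 1 aquaporins passed. Of the families tested, 1 of 12 P-type ATPases (Atp10a, -0.71, limma adjusted p = 0.00133), 1 of 6 subunits of the vacuolar proton pump (Atp6v1g2, -0.50, limma adjusted p = 0.0269) and the only organic anion polypeptide tested, Slco4a1 (-0.80, limma adjusted p = 0.0102), fell. On polarization of sufficient cells 5 of 13 ABC transporters rose and 3 fell, 3 P-type ATPases rose and 6 fell (4 after median-ratio scaling), and 4 proton pump subunits rose and 1 fell, where 40.4% of named genes rose and 35.7% fell. The pump subunit Atp6v0a1 rose from 74.28 to 1517 on average (log2 change 4.45) and in deficient cells from 48.13 to 1043 (4.49), more than any tested solute carrier of the table.

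Slc15a2 (PEPT2), a carrier of di- and tripeptides, varied strongly with the number in the library name within each group. In Th17 sufficient cells it was at 27.65, 194.3, 512.2 and 14.67 and in Th17 deficient cells at 10.54, 128.4, 353.6 and 14.64. On the most likely powers of 10 the IL-7 sufficient values were 45.19, 359.1, 1422 and 20.29 and the IL-7 deficient ones 36.13, 382.9, 1300 and 1.976, where the first and the last value of each group are uncertain. D3959 and D3TAM959 were the highest of the Th17 libraries and D3957 and D3TAM957 came next. For these numbers the values also differed by group, with those of IL-7 cells above those of Th17 cells in both genotypes. With the IL-7 values on these powers, 92.62% of the variation within groups went with the number. The median was 30.96% over all rows tested and 30.64% over the tested members. Both medians cover only rows with settled powers, which Slc15a2 is not, and tested members went up to 70.83% (Slc2a4rg-ps). The share that goes with the number does not weigh the number against the group. The authors' deposited table gives Slc15a2 a log2 fold change of -0.563 with an SE of 1.52, so the difference between its Th17 groups was small beside its spread. It was tied to its row on less likely powers of 10. Beyond the sex labelled with it (1 number female, 3 male), what the number stands for is not in the labels. The part of sex in this pattern was not tested.

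**Figure D5:**
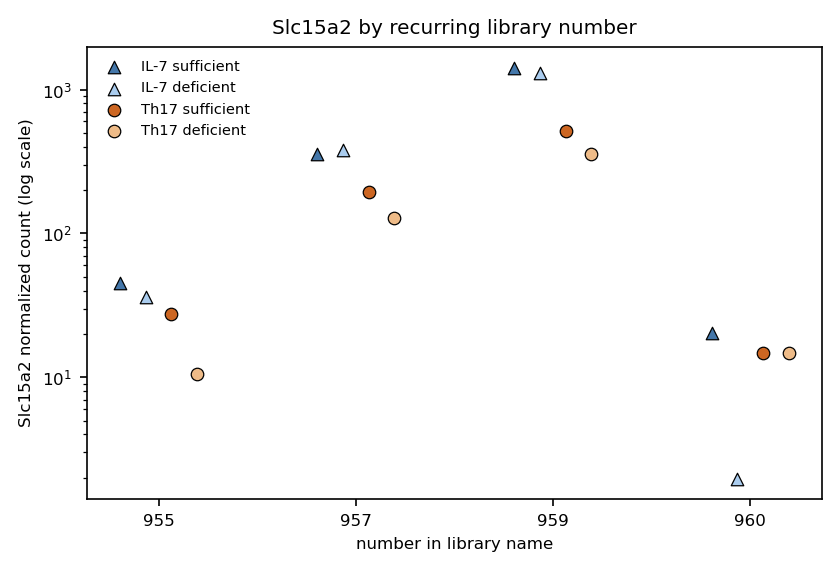
Slc15a2 normalized counts (y axis, log scale) by the number in the library name (x axis), 1 point per library, with triangles for IL-7 and circles for Th17 groups. IL-7 points are on their most likely powers of 10; D3959 and D3TAM959 are the highest of the Th17 libraries (512.2 and 353.6) and D3957 and D3TAM957 the next (194.3 and 128.4).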

How the data were processed

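The submitters' processing notes name Trim Galore 0.4.4, STAR 2.6, featureCounts, edgeR, DESeq2 and the build NCBIM37. Their settings, strand counting included, are not given in these sources. The authors deposited 1 table: per the file headers, the authors' mean normalized count and 16 columns of normalized counts (a scaled signal), and for their own comparison a log2 fold change and its SE, a test score, a p-value and its adjusted form.

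The deposited values had lost their decimal points, and values and names stood in different row order. A common step was found for each library, of which 99.9932% of nonzero values are whole multiples (reads). Powers of 10 came from how well the 4 libraries of a group matched, with a posterior of at least 0.95. Names were joined where the reads gave the deposited log2 fold change within 1e-06, using the dispersion implied by its SE. In all 13860 of 17850 rows were settled, and 8117 of 8552 names were joined, 368 of them on next-best powers. Of 1000 shifted decoys 13 were joined. Tested on simulated data, 998 of 1000 names went to the right row and 99.4% of settled rows were exact. Those reads were drawn from the mean and spread of the restored values, and all names shared the same dispersion. Powers misplaced in restoring would carry over into the simulation, so these figures do not measure accuracy in the deposited values. The restored values entered no test for counts but voom, as an alternative.

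Values entered limma 3.58.1 (R 4.3.3) with a trend, as log2(value + 1), for rows averaging at least 5, in 1 fit of 4 group means over 16 libraries. Benjamini-Hochberg adjustment covered all rows tested, and calls were made at 0.05. In simulated data for the IL-7 comparison (12908 genes), 81 of 100 2-fold and 95 of 100 4-fold changes were recovered, and 9 unchanged genes were called. The depth, 19621341 to 28287071 reads, limits low genes. Other tools were Python 3.11.15, pandas 2.3.3 and numba 0.67.0.

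Named were all members passing in IL-7 cells, the 10 highest rises and 10 steepest falls on polarization of sufficient cells without overlap and at 50 or more normalized counts, the 10 lowest log2 differences in Th17 deficient cells with a Th17 sufficient mean of 50 or more, carriers known from T cell metabolism (9 of 30 carry a name) and the highest of each substrate class; 1 gene that this rule names is not reported here. Members outside this rule, such as Slc35a1, Slc35d1 and Slc15a2, were named after their values were seen. Members and lists were chosen with earlier results of these data known. Alternatives were other pseudocounts, filters, scalings, voom, a replicate block, fits of the compared groups only, unsettled rows included, and libraries left out.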

Additional observations from a re-analysis of the deposited data

Results flagged for a closer look

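Dixon's test marked 21 of 306 sets of 4 values (6.86%) in which the highest or lowest library lay far from the other 3, where chance alone marks about 1 in 20. Of these, 13 concern members named by the rule.

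Low libraries were mostly D3955 and D3TAM955. In Th17 sufficient cells D3955 was low for Slc14a1 (25.68, the others 90.43 to 100.4), for Slc35b3 (1162, the others 1432 to 1458) and for Slc4a7 (1805, the others 3092 to 3200), while it was high for Slc26a10 (1177, the others 849.5 to 892.7). In Th17 deficient cells D3TAM955 was low for the lactate exporter Slc16a3 (929.3, the others 3364 to 3762) and for the iron importer Slc11a2 (1162, the others 1488 to 1552). D3959 was low for Slc35g2 (15.65, the others 19.18 to 19.75).

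High libraries were mostly BASAL960 and BASALTAM960. BASAL960 was high for Slc9a5 (316.2, the others 136.6 to 157.3) and for Slc22a15 (233.3, the others 137.1 to 142.4). BASALTAM960 was high for Slc25a5 (5135, the others at most 4543) and for Slc35f2 (251, the others 183.5 to 192.5), and D3960 was high for Slc7a3 (362.2, the others 143.2 to 176.8). BASALTAM955 was high for the pseudogene Slc2a4rg-ps (1894, the others 1445 to 1465).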

How the results depend on the processing

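Of the member counts, 3 changed by more than 1.5 times in the 30 alternatives. The 4 falls in IL-7 deficient cells became 0 without the libraries numbered as BASAL957 and 2 without those numbered as BASAL959, a range of 0 to 4 over the 4 numbers and of 3 to 4 over single libraries, where fewer samples enter the fit. Rises on polarization of sufficient cells went from 27 to 41 with unsettled rows included, where 84 members are tested instead of 66. Leaving out single libraries gave 26 to 28 rises and 26 to 27 falls in sufficient cells and 16 to 20 rises and 33 falls in deficient cells; leaving out a number gave 25 to 30, 26 to 28, 14 to 17 and 32 to 33. Of the changes of named members under single alternatives, 1418 kept direction and call, 12 lost and 9 gained a call, and 1 changed sign. It was the change of Slc2a3 on polarization of deficient cells, which ran from -0.0325 to 1.133 when the libraries of 1 number were left out. The cause of these changes was not tested beyond the smaller number of samples.

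Whether the numbers pair the libraries is not in the labels. Deviations of same-numbered libraries correlated at 0.0717 to 0.3865 between both IL-7 groups, all above those of libraries of unlike number there (-0.2528 to 0.0277). Elsewhere same-numbered libraries went down to 0.0086. Not all were over the 0.1 set for pairs, so the fit without a block was kept. Every library correlated best with its own number between both IL-7 groups (8 of 8) and in 6 to 8 of 8 cases elsewhere. With the number as a replicate block the members gave 4 falls in IL-7 deficient cells and 1 rise (Slc2a8, limma adjusted p = 0.049), 27 rises and 27 falls in sufficient cells and 19 rises and 33 falls in deficient cells, and in IL-7 cells 816 instead of 560 rows were called over all genes.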
